A study of Mus musculus with 12 samples.

Results

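Constant intergenic H3K4me1 regions are stretches of the mouse genome, far from genes, that carried a peak of monomethylated histone H3 lysine 4 in every H3K4me1 library of the study. The peaks of the 4 H3K4me1 lists were merged where they shared at least 1 bp, on 15 autosomes (chromosomes 4, 10, 16 and 19 were not used). A merged region was kept when all 4 lists had a peak in it, when it lay outside every protein-coding gene span, and when it was more than 10 kb from either end of any gene in the RefSeq annotation. The rule kept 6222 of 75214 merged regions. They made up 28.3% of the 22021 regions with a peak in all 4 lists, which are called constant regions here; the other constant regions were 6699 deep inside protein-coding genes and over 10 kb from any gene end, 4306 that overlapped a protein-coding gene within 10 kb of a gene end, and 4794 intergenic ones within 10 kb of a gene end. The regions were chosen by the H3K4me1 peaks themselves, so the presence and the level of H3K4me1 in these regions are given as a description and were not tested against other regions; tests of level are between KO and WT.

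The libraries came from mouse embryonic fibroblasts (MEFs), connective tissue cells cultured from embryos, that carried either a knockout of Fbxw7 (labelled fbxw7 KO, here KO) or no such change (WT). Cut & Run was used, in which an antibody brings a nuclease to its target on chromatin and the released DNA is sequenced. Each genotype had 2 libraries with an antibody to H3K4me1, 2 to H3K4me3 and 2 to MLL4, which gives 12 libraries. The labels name no strain, embryo age, deletion method or treatment. They leave unsaid whether replicate libraries were made from different cultures or embryos, so a p-value here measures only the spread between these libraries, which may be technical. In the limma tests that spread is mostly pooled over all constant regions.

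H3K4me1 is found at enhancers and around promoters, whereas H3K4me3 is concentrated at active promoters. MLL4, the product of Kmt2d, is a methyltransferase that places much of the H3K4me1 at enhancers in mammalian cells. Fbxw7 is the substrate-binding part of a ubiquitin ligase that marks proteins such as Myc, Notch and Jun for destruction. In fibroblasts, distal enhancers are known to be bound by AP-1, TEAD and RUNX factors and to serve genes of the extracellular matrix, among others. An H3K4me1 peak alone does not show that a region acts as an enhancer, and the gene nearest to it need not be its target.

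The bases of 3 of the 6222 regions could be read in part, because these regions overlapped a promoter window of RefSeq (250 bases before to 50 bases after a transcript start, GRCm38.p6). The starts are internal ones of noncoding genes, over 10 kb from the ends of the gene. The windows are shown as examples of DNA in such regions and, in part, beside them. All 3 belong to lncRNA genes on the + strand: Gm14009 at chr2:128189756-128190055, Gm12153 at chr11:43991612-43991911 and Gm32499 at chr15:32199224-32199523. Capitals mark matches, on either strand, to 6-letter cores known for TEAD (GGAATG), RUNX (TGTGGT) and RBPJ (TGGGAA), the DNA-binding partner of Notch.
Gm14009: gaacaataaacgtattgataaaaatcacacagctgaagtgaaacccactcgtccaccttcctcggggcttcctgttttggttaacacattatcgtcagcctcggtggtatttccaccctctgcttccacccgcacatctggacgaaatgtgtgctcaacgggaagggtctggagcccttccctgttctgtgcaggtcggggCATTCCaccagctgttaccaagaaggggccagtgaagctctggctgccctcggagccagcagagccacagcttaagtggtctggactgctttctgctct
Gm12153: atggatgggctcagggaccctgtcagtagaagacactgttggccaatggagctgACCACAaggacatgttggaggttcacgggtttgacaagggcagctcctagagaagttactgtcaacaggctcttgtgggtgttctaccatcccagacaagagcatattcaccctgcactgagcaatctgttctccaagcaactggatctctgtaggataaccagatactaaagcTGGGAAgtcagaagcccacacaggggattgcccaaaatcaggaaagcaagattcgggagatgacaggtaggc
Gm32499: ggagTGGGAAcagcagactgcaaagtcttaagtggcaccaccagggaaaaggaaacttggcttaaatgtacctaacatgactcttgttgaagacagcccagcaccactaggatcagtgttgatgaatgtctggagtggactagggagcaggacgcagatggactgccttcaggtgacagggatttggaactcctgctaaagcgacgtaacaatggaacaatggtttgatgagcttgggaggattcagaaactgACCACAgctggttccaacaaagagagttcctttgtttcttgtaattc
The H3K4me1 region covered 222 of the 300 bases of Gm14009's window, all 300 of Gm12153's and the first 29 of Gm32499's. Gm14009's window held 1 TEAD match, 10 CpG dinucleotides and 53.7% G+C. Gm12153's held 1 RUNX and 1 RBPJ match, 2 CpG and 50.7% G+C. Gm32499's held 1 RUNX and 1 RBPJ match, 3 CpG and 47.3% G+C. Its RBPJ match lies in the 29 bases under the region, and its RUNX match lies outside them. Peaks of 2 H3K4me1 libraries reached Gm32499's window, with 0 summits in it. Over all 32851 promoter windows of the table, 14.7% held the TEAD letters, 16.8% the RUNX letters and 25.6% the RBPJ letters, the median G+C was 52.7% and the median CpG count was 7. None of the 3 windows held the AP-1 letters TGANTCA, which 7.81% of all windows held; that says only that these letters were not in these windows. The H3K4me1 pileup (the number of fragments stacked at the highest summit of a region) at Gm14009 was 10 and 12 in KO, against 11 and 15 in WT. Gm12153 had 27 and 26 in KO and 16 and 22 in WT, and Gm32499 had 23 and 13 in KO and 17 and 17 in WT. The groups did not overlap at Gm12153, with both KO libraries above both WT libraries, and overlapped at the other 2; none of the 3 passed the test described below (adjusted p = 0.839, 0.161 and 0.846 by limma).

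Depth after duplicate filtering was 11604131 to 13627038 fragments in the H3K4me1 libraries, 5519477 to 11319701 in the H3K4me3 libraries and 4435103 to 5838305 in the MLL4 libraries. The MLL4 lists held 40 to 69 peaks each. The loss of Fbxw7 itself was not checked here, since the lists hold no measure of its RNA or protein. H3K4me3 peaks lay within 1 kb of an end of 31 of 37 fibroblast and matrix genes in at least 1 library, against 55.5% of all 21631 protein-coding genes. The same was seen for 5 of 14 neural, 4 of 15 haematopoietic, 2 of 12 endothelial, 1 of 13 epithelial, 2 of 13 pluripotency and 3 of 15 myogenic genes. The share at fibroblast genes was above that of all genes, and those of the other cell types were below it. This share rests mostly on WT. By library, 20 and 16 of the 37 fibroblast genes had a peak in KO and 31 and 27 in WT. Of all 21631 genes, 8280 and 8840 had one in KO and 11938 and 11402 in WT.

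Constant intergenic regions had moderate H3K4me1 pileups that were close to those of other constant regions. Their median pileup was 21 and 20 fragments in the KO libraries and 22 and 21 in the WT libraries, where the medians over all constant regions were 22 and 20 in KO and 23 and 22 in WT. A pileup of 21 has an exact Poisson 95% interval of 13 to 32.1, which covers counting error only. To rank the regions, each pileup was divided by its library's median over all constant regions and the log2 values were averaged over the 4 libraries. This relative level had a median of 0.947, quartiles of 0.760 and 1.17, and a range of 0.425 to 4.95. The lowest raw pileup of any of the regions was 8 in each of the 4 libraries. Regions deep inside genes had a median of 1.03. The merged regions had a median length of 1226 bp (range 329 to 3542 bp), against 1230 bp deep inside genes. Of the 19573 merged regions that met the position rule, 31.8% had a peak in all 4 lists, next to 31.7% of merged regions deep inside genes, 28.9% of intergenic ones near a gene end and 24.0% of those over or near a gene end.

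Pileups of the 6222 regions followed each other more closely within a genotype than between genotypes. Over these regions, Pearson's r of log2 pileup was 0.752 between the 2 KO libraries and 0.774 between the 2 WT libraries, and 0.603 to 0.618 for the 4 pairs of a KO and a WT library. These are correlations across regions, which are not replicates. The highest summits of 2 libraries lay a median of 193 bp apart within KO, 181 bp apart within WT and 193 to 198.5 bp apart between genotypes. The difference of 9.13 bp between the mean of the between-genotype medians and that of the within-genotype medians gave an exact permutation p of 0.3333, the smallest that 4 libraries allow. The median number of bases covered by peaks was 853 and 780 bp per region in KO and 876.5 and 823.5 bp in WT. The groups overlapped, and the difference of -33.5 bp gave an exact two-sided permutation p of 0.667; without KO replicate 2 it was 3.0 bp.

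The 4 highest regions were peaks in all 12 lists, whatever the antibody. The region at chr14:19416915-19417349 (nearest protein-coding gene Gm2244, 116 kb away) had H3K4me1 pileups of 136 and 133 in KO and 88 and 84 in WT. The region at chr2:98666322-98667304, 1035 kb from the synaptic adhesion gene Lrrc4c, had 117 and 95 in KO and 46 and 42 in WT. At the start of chromosome 9, chr9:3020221-3020549 had 72 and 76 in KO and 44 and 38 in WT, and chr9:3000366-3001508 had 89 and 69 in KO and 37 and 30 in WT. All KO libraries were above all WT libraries at each of the 4. In these 4 regions and in 2 low ones, at chr14:7524134-7524603 and chr3:120717092-120717627, every MLL4 and every H3K4me3 list also had a peak. Regions that give peaks with any antibody are commonly set aside in chromatin profiling, and no list of such regions was used here. Without these 6 regions the highest relative level was 2.20, and 17 regions in place of 21 were above 2.

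The next regions in rank had like levels in both genotypes. The first of them, at rank 5, chr17:14465496-14468394, lies 60.7 kb from Smoc2, a secreted matrix-associated protein, with Thbs2 (thrombospondin 2) on its other side. It had pileups of 50 and 47 in KO and 49 and 45 in WT. Rank 6, at chr7:106236024-106238095 and 20.7 kb from the interferon-inducible GTPase gene Gvin1, had 51 and 50 in KO and 56 and 35 in WT. The region at chr8:10961649-10962824, 21.9 kb from the insulin signalling adaptor gene Irs2, had 44 and 39 in KO and 59 and 49 in WT. Of these, only the region by Irs2 kept the genotypes apart in raw pileup, with WT higher. Its relative level did not pass the test (log2 difference KO minus WT -0.28 ± 0.22 SE, adjusted p = 0.566 by limma). In relative level the region by Smoc2 was apart too, at 2.27 and 2.35 in KO and 2.13 and 2.05 in WT. That region did not pass either (adjusted p = 0.797 by limma).

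Other regions near the top had genes of varied function beside them. The region at chr2:27858213-27859314 is 27.1 kb from Col5a1, a chain of type V collagen, and had 37 and 47 in KO and 53 and 44 in WT. One at chr13:5202505-5205021 lies between Akr1e1 and the zinc finger factor gene Klf6, 593 kb from Akr1e1, and had 40 and 44 in KO and 45 and 49 in WT. One at chr2:166426255-166427623, 139 kb from Prex1, an exchange factor for Rac, had 50 and 32 in KO and 51 and 48 in WT. One at chr8:46866216-46869585, 18.8 kb from the interferon regulatory factor gene Irf2, had 44 and 39 in KO and 56 and 40 in WT. The genotypes overlapped at the regions by Col5a1, Prex1 and Irf2. At the region between Akr1e1 and Klf6 both KO values were just below both WT values in raw pileup only. Its relative levels overlapped, at 1.82 and 2.20 in KO and 1.96 and 2.23 in WT. The region at chr2:74964157-74965018, 87.4 kb from the mitochondrial import gene Mtx2, had 40 and 45 in KO and 46 and 54 in WT, and an H3K4me3 peak in 1 library. The remaining high regions without MLL4 or H3K4me3 peaks were chr13:110942835-110944926 (between Plk2 and Actbl2), chr5:122527612-122530165 (10.1 kb from Ift81, an intraflagellar transport gene) and chr5:53377256-53377867 (between Smim20 and Rbpj), with relative levels of 2.13, 2.07 and 2.03.

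Most regions were far from any protein-coding gene: the median distance was 105.4 kb (quartiles 39.1 and 265 kb), 3214 regions (51.7%) were over 100 kb away and 663 were over 500 kb away. Because the genome has more sequence far from genes, the counts were also divided by the 758 Mb that met the position rule (eligible sequence). Overall there were 8.20 regions per eligible Mb. The density was 9.67 at 10 to 20 kb from the nearest protein-coding gene, 11.2 at 20 to 50 kb, 10.1 at 50 to 100 kb, 9.31 at 100 to 200 kb and 5.93 beyond 200 kb. By chromosome it ran between 6.12 on chromosome 7 and 12 on chromosome 13. Where the promoter table gave the strand of the nearest gene (4743 regions), 54.2% lay on the side of its start, next to 55.1% of 3621 intergenic constant regions near a gene end. Spans of genes that are not protein-coding overlapped 604 regions (9.71%).

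**Figure D1:**
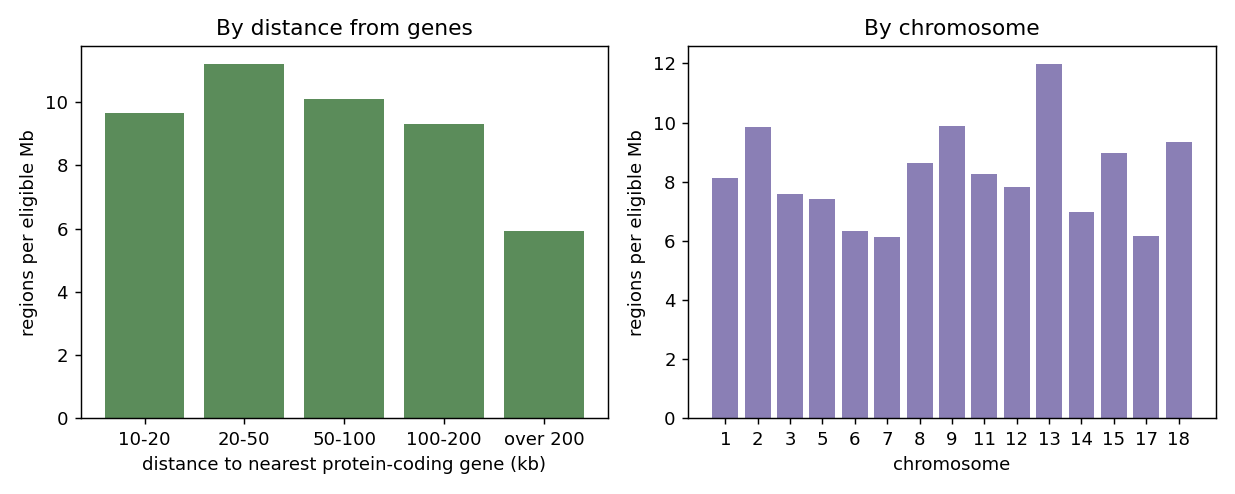
Constant intergenic regions per Mb of eligible sequence, by distance from the nearest protein-coding gene (left) and by chromosome (right). Bars start at 0; density is highest at 20 to 50 kb (11.2) and lowest beyond 200 kb (5.93), and chromosome 13 has the highest bar (12).

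The regions farthest from protein-coding genes lay in intervals beside protocadherin genes, which encode cell adhesion proteins of the nervous system. The farthest, chr14:82064055-82066051, was 2041 kb from Olfm4, though 55.4 kb from the nearest end of any annotated gene, and had 15 and 18 in KO and 26 and 27 in WT. In the same interval, which Pcdh17 closes on its right, chr14:82654911-82655877 had 25 and 17 in KO and 12 and 11 in WT. The first had both KO libraries below both WT libraries and did not pass the test (adjusted p = 0.162 by limma), and the second had both above and passed (log2 difference 0.94 ± 0.23 SE, adjusted p = 0.0230). The others were chr14:82464525-82465778 in that interval, chr14:91151034-91152048 between Pcdh20 and Pcdh9, and chr3:43579240-43580620 between D3Ertd751e and Pcdh10, with relative levels of 0.641, 0.590 and 0.646, all under the median of 0.947.

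Many regions had another close by. With gaps of at most 12500 bp counted as a cluster, 2149 regions (34.5%) fell in clusters of 2 or more and 199 clusters held 3 or more; with gaps of 25 kb there were 444 such clusters. The largest held 7 regions over 49.2 kb at chr2:117626559-117675766, between Rasgrp1, an activator of Ras, and Thbs1 (thrombospondin 1), 284 kb and 436 kb away. From left to right the first 4 of them had pileups of 22 and 14 in KO against 22 and 17 in WT, 27 and 26 against 32 and 27, 28 and 17 against 25 and 20, and 44 and 35 against 39 and 31. The last 3 had 28 and 31 in KO against 36 and 43 in WT, 30 and 24 against 32 and 29, and 35 and 24 against 27 and 26. None of the 7 passed the test between genotypes, and their log2 differences ran between -0.32 and 0.28.

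Of the 4 clusters of 6, a pair lay between Smim20 and Rbpj. The first, chr5:53346013-53386287, spans 40.3 kb, with relative levels of 1.18 to 2.03. Its second region, chr5:53356713-53357632, fell in KO: it had 19 and 17 in KO and 42 and 39 in WT, with no overlap (log2 difference -1.07 ± 0.22 SE, adjusted p = 0.00975 by limma). Its other 5 regions did not pass, with log2 differences of -0.33 to 0.07. The adjusted p of the second region was 0.0640 without KO replicate 1, 0.0689 without KO replicate 2, 0.114 without WT replicate 1 and 0.0993 without WT replicate 2. The second cluster, chr5:53455082-53493947, ends 61.8 kb from Rbpj, and none of its regions passed. The cluster at chr5:29847797-29895359 lies 61.3 kb from the chaperone gene Dnajb6 and 118 kb from the cytokine gene Il6. All 6 of its log2 differences were below 0 (-0.53 to -0.20) and none passed. The cluster at chr7:83201616-83239259 is 22.2 kb from A530021J07Rik, the gene that shares with Irf2bp2 the highest number of regions within 100 kb of its span (10 each).

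Genes of the extracellular matrix and of mesenchymal regulation had a larger share with constant intergenic regions beside them than protein-coding genes at large. So did those of most other lists. This is a comparison of counts with no test. Genes with a region within 100 kb of their span were 16 of 29 fibroblast and matrix genes (55.2%), 17 of 33 genes of TGF-beta, Wnt, FGF and other ligands (51.5%), 24 of 51 mesenchymal transcription factors (47.1%), 7 of 17 AP-1 and immediate early genes (41.2%), 7 of 21 Notch pathway genes (33.3%) and 7 of 22 Fbxw7 substrates (31.8%). Among all 16952 protein-coding genes on the chromosomes used, 3383 (19.96%) had one. The markers of other cell types ran from 0 of 12 pluripotency genes, 1 of 12 haematopoietic, 1 of 10 epithelial and 2 of 10 neural genes to 3 of 12 myogenic and 3 of 9 endothelial genes. Housekeeping genes had 4 of 15. Over genes with at least 1 kb of eligible sequence within 100 kb, the share was 25.7% of all such genes. It was 16 of 27 fibroblast and matrix genes (59.3%), 17 of 29 ligands (58.6%) and 7 of 12 AP-1 and immediate early genes (58.3%). It was 50% for mesenchymal factors (24 of 48), Notch pathway genes (7 of 14), Fbxw7 substrates (7 of 14) and housekeeping genes (4 of 8). The markers of other cell types ran from 0% (pluripotency) to 33.3% (endothelial). The lists hold few genes: the exact binomial 95% interval was 35.7% to 73.6% for fibroblast and matrix genes and 13.9% to 54.9% for Fbxw7 substrates.

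Genes differ in how much eligible sequence surrounds them, so the regions were also counted per eligible Mb within 100 kb. Fibroblast and matrix genes had 29.3, haematopoietic genes 26.1, Notch pathway genes 23.3, housekeeping genes 21.9, myogenic genes 19.4 and AP-1 and immediate early genes 17. Endothelial genes had 16.7, Fbxw7 substrates 16.3, ligands 15.4, mesenchymal factors 15.4, neural genes 13.1, epithelial genes 6.06 and pluripotency genes 0. Around all protein-coding genes there were 10.2. The haematopoietic value came from 1 gene, Ptprc, with 6 regions. The median eligible sequence around a gene was 84.6 kb for mesenchymal factors, 78.8 kb for ligands and 60.0 kb for fibroblast and matrix genes. It was 31.5 kb for all genes with any. On the measure per eligible Mb mesenchymal factors and ligands were nearer to the value of all genes than fibroblast and matrix genes were. The 51 regions beside fibroblast and matrix genes had a median relative level of 1.19, and 22 of them (43.1%) were in the top quintile by rank, against 21.3% of the 3008 regions within 100 kb of any protein-coding gene. Like values were found for the few regions beside housekeeping genes (median level 1.21, 2 of 5 in the top quintile) and myogenic genes (1.16, 3 of 7).

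**Figure D2:**
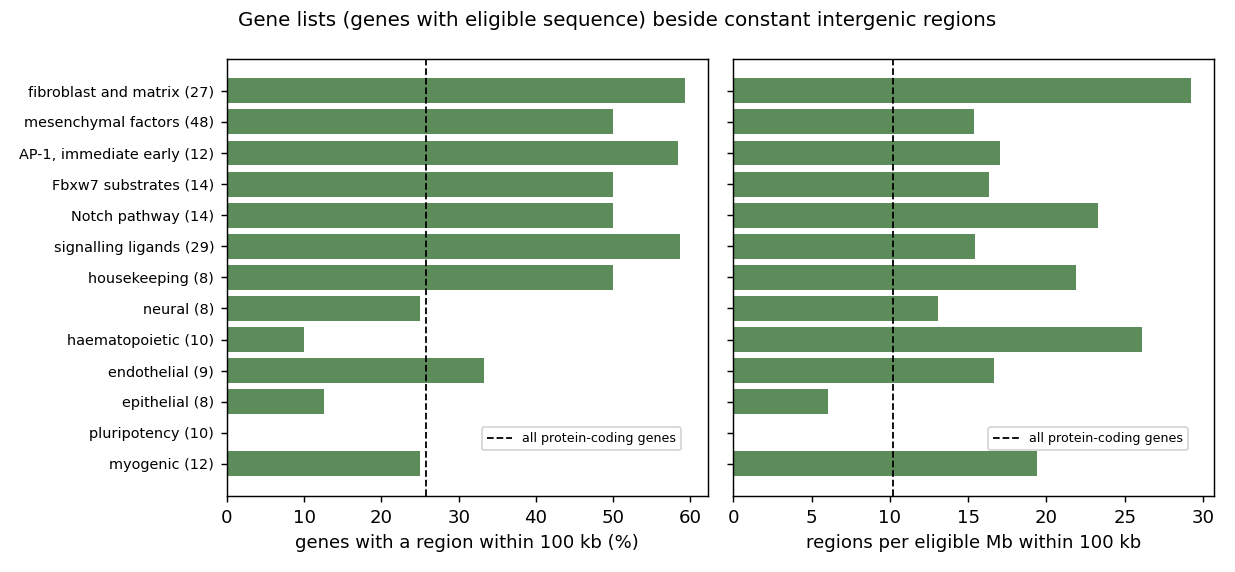
Share of genes with a constant intergenic region within 100 kb (left) and regions per eligible Mb within 100 kb (right) for each gene list, counting genes with at least 1 kb of eligible sequence (number in brackets). Dashed lines give all protein-coding genes (25.7% and 10.2 per Mb); fibroblast and matrix genes reach 59.3% and 29.3 per Mb.

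Col5a1 had 7 such regions, periostin (Postn) and Thbs2 had 6 each, the cadherin gene Cdh11 had 5 and the hyaluronan receptor gene Cd44 had 4. For Lox, which crosslinks collagen and elastin, the highest region was chr18:52601342-52603177, 71.5 kb away (12.7 kb from Zfp474), with 37 and 34 in KO and 39 and 36 in WT. For Thbs2 it was chr17:14647646-14648823, 16.7 kb away, with 39 and 33 in KO and 31 and 40 in WT. For Thy1, a surface marker of fibroblasts, it was chr9:43988468-43989560, 53.8 kb away, with 30 and 34 in KO and 35 and 37 in WT. For Col6a3, a chain of type VI collagen, it was chr1:90718425-90719850, 47.0 kb away, with 29 and 26 in KO and 46 and 38 in WT. KO was below WT without overlap at the regions by Thy1 and Col6a3 in raw pileup. In relative level the groups overlapped at Thy1's region (1.36 and 1.70 in KO, 1.52 and 1.68 in WT). They stayed apart at Col6a3's (1.32 and 1.30 in KO, 2.00 and 1.73 in WT). Neither region passed the test (adjusted p = 0.918 and 0.226 by limma). Of the 51 regions beside fibroblast and matrix genes 0 passed by limma; with 2.77% of all constant regions called, few calls are due in a set of this size, and the 0 says little about these regions.

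Among mesenchymal transcription factors, Prrx1 and Zeb1 had 7 regions each, Meox1 had 6 and Runx2 and Tbx18 had 5. The highest region for Zeb1, a repressor of epithelial genes, was chr18:5515520-5516917, with 37 and 30 in KO and 59 and 36 in WT. For Meox1, a homeobox factor of somites, it was chr11:101829830-101831208, with 43 and 40 in KO and 35 and 36 in WT. For Prrx1, a homeobox factor of limb and craniofacial mesenchyme, it was chr1:163362569-163363850, with 35 and 34 in KO and 37 and 32 in WT. Those of Creb5 (chr6:53800196-53802582) and Runx2 (chr17:44417985-44419646), the factor of bone formation, had relative levels of 1.63 and 1.49. The regions named for Meox1, Prrx1 and Creb5 lay 46.3, 47.4 and 99.8 kb from these genes. Other genes were nearer to them: Etv4 at 44.5 kb, Gorab at 21.1 kb and Tril at 12.9 kb. Meox1's region had both KO libraries above both WT libraries and did not pass (adjusted p = 0.481 by limma); at Prrx1 the groups overlapped. Of the 63 regions beside mesenchymal factors, 1 rose and 1 fell in KO (3.17% called, against 2.77% of all constant regions).

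The 10 regions beside AP-1 and immediate early genes had a median relative level of 1.03, and the 11 beside Fbxw7 substrates 0.963, next to 0.966 over the regions beside any protein-coding gene. For Fosl2, a subunit of AP-1, the highest was chr5:32209443-32211452, with 31 and 26 in KO and 40 and 29 in WT. It lay 51.6 kb from Fosl2, and Plb1 was nearer at 21.2 kb. For the nuclear receptor gene Nr4a2 the highest was chr2:57155766-57157644, with 31 and 24 in KO and 32 and 35 in WT. Regions 84.3 kb from Atf3 and 94.6 kb from Ier3 had relative levels of 1.06 and 1.00, with Nenf (37.4 kb) and Ddr1 (21.1 kb) nearer. For Myc, which is on both lists, the highest was chr15:62049068-62049620, 58.7 kb from the gene, with 30 and 22 in KO and 29 and 27 in WT. For Notch1 it was chr2:26524909-26526385, with 34 and 38 in KO and 34 and 32 in WT, and for Mycn chr12:12972282-12973688, with 28 and 28 in KO and 24 and 20 in WT. Zeb2 (chr2:44956547-44957661) and the hypoxia factor gene Hif1a (chr12:73866097-73867782) had regions at relative levels of 1.19 and 1.11. In raw pileup KO was above WT without overlap at Mycn's region and below it at Nr4a2's. In relative level the groups overlapped at Nr4a2's region (1.41 and 1.20 in KO, 1.39 and 1.59 in WT). Neither region passed (adjusted p = 0.289 and 0.715 by limma). Of the 11 regions beside Fbxw7 substrates and the 10 beside AP-1 and immediate early genes 0 passed, and at the background share of 2.77% sets this small could hold no call without differing from other regions.

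The comparison of KO with WT asks whether loss of Fbxw7 changed the H3K4me1 level of regions that were peaks in both genotypes. It was made by limma on log2 relative pileup, fitted on all 22021 constant regions with Benjamini-Hochberg adjustment over them and a threshold of 0.05. Limma pools variance over regions: the prior had 27.9 degrees of freedom, beside 2 residual ones of each region. An SE given here thus rests mostly on the pooled spread and little on the replicates of that region. For regions that rose, SEs ran only from 0.223 to 0.268. Because a region had to be a peak in every library to have a value, the largest differences are not in this comparison. Of the 6222 regions, 137 rose in KO (2.20%, against 1.73% of all constant regions) and 61 fell (0.980%, against 1.04%). In either direction 198 were called (3.18%), and the background over all constant regions was 2.77%, so the share called was near the background. Folds KO over WT ran between 1.74 and 3.27 for those that rose, with a median of 1.92, and between 0.436 and 0.579 for those that fell, with a median of 0.535. The median log2 difference was 0.03 over the 6222 regions and -0.01 over all constant regions. Both KO libraries were above both WT libraries in 25.5% of the regions (22.2% of all constant regions) and below both in 20.5% (23.2%).

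The number of calls depended on the libraries and the scaling. Leaving out KO replicate 1 gave 32 higher and 7 lower regions, leaving out KO replicate 2 gave 17 and 4, leaving out WT replicate 1 gave 14 and 0, and leaving out WT replicate 2 gave 6 and 1. Under quantile normalization, the sum of pileups in a region or the percentile of a region within its library, limma called 0 of the 6222 regions in either direction, although 1086, 856 and 1090 regions had an unadjusted p under 0.05, against 1181 (19%, with 17.8% of all constant regions) in the comparison as reported. All 198 kept the sign of their difference under quantile normalization and the percentile, and 197 under the sum. The prior degrees of freedom of limma were 7.74, 6.64 and 3.47 in the quantile, sum and percentile fits, against 27.9 in the comparison as reported. Whether this weaker pooling of variance lowered the number of calls was not tested. With each chromosome centred on its own median, 114 were higher and 28 lower, so that 80.3% of calls were higher, against 69.2%.

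**Figure D3:**
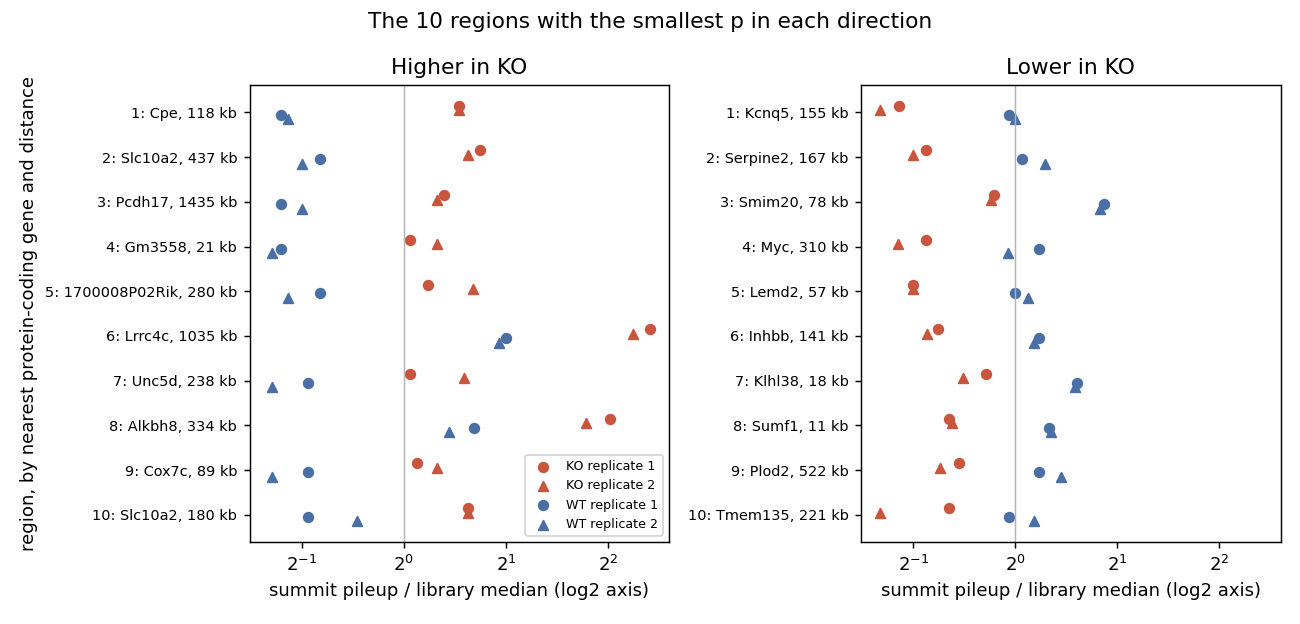
Relative H3K4me1 pileup (log2 axis) in each library at the 10 regions with the smallest p in each direction, higher in KO on the left and lower in KO on the right, labelled by the nearest protein-coding gene and its distance. In each of the 20 rows both KO libraries lie on 1 side of both WT libraries.

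Among the regions that rose in KO, the smallest p was at chr8:64472609-64475032, 118 kb from Cpe, which encodes the prohormone-processing carboxypeptidase E. It had 32 and 29 in KO and 10 and 10 in WT, with no overlap (log2 difference 1.71 ± 0.22 SE, adjusted p = 0.000276 by limma). With 1 library left out its log2 difference was 1.68 to 1.74. It did not pass under quantile normalization, the sum of pileups or the percentile (adjusted p = 0.0869, 0.189 and 0.161 by limma). A pair of smaller regions nearer to Cpe also rose: chr8:64547970-64548882 had 22 and 22 in KO and 11 and 15 in WT, and chr8:64563644-64564228 had 20 and 23 in KO and 14 and 11 in WT. Between them and the first, chr8:64539600-64541162 had 31 and 24 in KO and 38 and 35 in WT and did not pass, so the change did not cover the interval. On the same chromosome, chr8:5542386-5543400 had 37 and 31 in KO and 13 and 11 in WT, and chr8:5285684-5286845 had 34 and 31 in KO and 12 and 16 in WT. Both lie between Slc10a2, the ileal bile acid transporter, and the ephrin ligand gene Efnb2.

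The others that rose with the smallest p were mostly far from genes. The region at chr14:83007167-83009000, 1435 kb from Pcdh17, had 29 and 25 in KO and 10 and 11 in WT. The region at chr3:6334404-6335630, 280 kb from 1700008P02Rik, had 26 and 32 in KO and 13 and 10 in WT. The region at chr8:29458092-29459671, 238 kb from the netrin receptor gene Unc5d, had 23 and 30 in KO and 12 and 9 in WT. The region at chr13:85954821-85955750, 89.0 kb from the respiratory chain gene Cox7c, had 24 and 25 in KO and 12 and 9 in WT. All WT values in these 4 regions were at or below 13, near the lowest pileup of 8, and all KO values were at or above 23. The remaining 3 were peaks for all 3 antibodies: chr2:98666322-98667304, chr9:3000366-3001508 and chr14:7524134-7524603, the last with 23 and 25 in KO and 10 and 9 in WT. With chr9:3020221-3020549, 4 of the 137 regions that rose had MLL4 peaks; without the regions that hold MLL4 peaks, 133 rose and 61 fell.

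Among the regions that fell in KO, the smallest p was at chr1:22117299-22118308, 155 kb from the potassium channel gene Kcnq5. It had 10 and 8 in KO and 22 and 22 in WT, with no overlap (log2 difference -1.20 ± 0.22 SE, adjusted p = 0.00401 by limma), and its adjusted p was between 0.0317 and 0.0783 with 1 library left out, passing only without KO replicate 1. The region at chr1:80025387-80026342, 167 kb from Serpine2, an inhibitor of thrombin and other proteases, had 12 and 10 in KO and 24 and 27 in WT. The region at chr1:119272779-119274001, between Gli2 (a factor of hedgehog signalling) and Inhbb (a subunit of activin B), had 13 and 11 in KO and 27 and 25 in WT. All 4 WT values at these last 2 regions were at least 24, and all KO values were at most 13. These KO values, and those by Kcnq5, were at or near 8, the lowest pileup of any of the regions in each library.

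The region at chr15:62300650-62302280 fell too, with 12 and 9 in KO and 27 and 21 in WT, and it lies 310 kb from Myc on the side of Gsdmc. The region at chr9:93130246-93132070, 522 kb from Plod2, a lysyl hydroxylase for collagen crosslinks, had 15 and 12 in KO and 27 and 30 in WT. The region at chr15:58295255-58296265, between Fbxo32 and Klhl38, had 18 and 14 in KO and 35 and 33 in WT. The others were chr17:27262732-27263458 by Lemd2, chr6:108095153-108096465 by Sumf1 and chr7:88917480-88918679 by Tmem135, with log2 differences of -1.06, -0.98 and -1.05. At all of these the lowest WT value was above the highest KO value. The region 58.7 kb from Myc described above did not pass, with a log2 difference of -0.02.

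Of the called regions, 7 pairs lay next to each other in the called list within 100 kb. No such count was made for other constant regions, so it does not show whether called regions were spread out or grouped. The pair on chromosome 9 is made of regions that gave peaks with every antibody. In none of the pairs did both regions fall, which says little with 61 regions lower in KO. In 5 of the 7 pairs both rose. Beside the Cpe and chromosome 9 pairs these were a pair by Fign and a pair by Pax1, a paired-box factor of the sclerotome: chr2:147517955-147519661 had 26 and 22 in KO and 12 and 9 in WT, and chr2:147554677-147556034 had 24 and 32 in KO and 11 and 14 in WT. In the other 2 pairs the regions moved apart. By Irs1, an insulin receptor substrate, chr1:82099643-82100728 rose (20 and 19 in KO, 13 and 10 in WT) and chr1:82189276-82190372 fell (11 and 10 in KO, 21 and 22 in WT), while chr1:82111859-82113845 between them had 29 in each of the 4 libraries. Between 471 and 522 kb from the leukocyte phosphatase gene Ptprc, chr1:137538619-137540514 rose (32 and 33 in KO, 18 and 22 in WT) and chr1:137591144-137592090 fell (11 and 11 in KO, 29 and 16 in WT).

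Among regions far from genes more rose in KO than fell, as was also so over all 6222 regions (137 and 61). Of the 2039 regions over 200 kb from a protein-coding gene, 71 rose and 16 fell (3.48% and 0.785%, against 1.73% and 1.04% of all constant regions), with a median log2 difference of 0.09. Of the 655 regions at 10 to 20 kb, 9 rose and 9 fell (1.37% each), with a median of 0.00. At 20 to 50 kb 20 rose and 7 fell (1.57% and 0.549%). At 50 to 100 kb 18 rose and 14 fell (1.67% and 1.30%), and at 100 to 200 kb 19 and 15 (1.62% and 1.28%). The difference between these shares was not tested. The mean log2 relative level of the regions over 200 kb away minus that of the 1931 regions within 50 kb was 0.0020 and 0.0039 in the KO libraries and -0.0975 and -0.0912 in the WT libraries. The groups did not overlap, and the difference of 0.0972 gave an exact two-sided permutation p of 0.3333, the smallest that 2 libraries against 2 can give; this split was chosen after its values were seen. Likewise, the mean log2 level of constant intergenic regions minus that of regions deep inside genes was -0.0765 and -0.0775 in KO and -0.125 and -0.123 in WT; the test of KO against WT on these 4 values gave an exact permutation p of 0.3333, and the difference between the region classes itself was not tested. By chromosome, the median log2 difference ran between -0.04 on chromosome 7 and 0.15 on chromosome 11. On chromosome 12, 15 of 401 regions rose and 0 fell, and on chromosome 11, 7 of 315 rose and 0 fell; over all constant regions, 1.73% were higher and 1.04% lower. On chromosome 11 the median over all constant regions was 0.10, and on chromosome 7 it was -0.02. The regions that rose had a median rank of 4321 and those that fell 3919, so most were in the lower part of the ranking, where 41 of the 137 and 15 of the 61 were in the lowest quintile.

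H3K4me3 peaks were rare in constant intergenic regions, and almost all were in WT libraries. Of the 6222 regions, 10 (0.161%) and 15 (0.241%) had an H3K4me3 peak in the KO libraries and 206 (3.31%) and 107 (1.72%) in the WT libraries. The groups did not overlap; KO libraries averaged 0.201% ± 0.0568 and WT libraries 2.52% ± 1.13 (SD, n = 2 libraries each), a difference of -2.31 percentage points with an exact two-sided permutation p of 0.3333, the smallest possible. The H3K4me3 lists were also shorter in KO, with 10397 and 11281 peaks, than in WT, with 17460 and 16078, and WT replicate 1 had 11319701 fragments and up to 2 duplicates kept per position, where the other 3 had 5519477 to 6185767 and 1. When each list was cut to the length of the shortest by q value, the shares were 0.161% and 0.225% in KO and 0.177% and 0.209% in WT, with overlap and a difference of 0 (exact permutation p = 1). Without the 6 regions that have peaks for all 3 antibodies, 4 and 9 regions had an H3K4me3 peak in KO and 200 and 101 in WT.

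**Figure D4:**
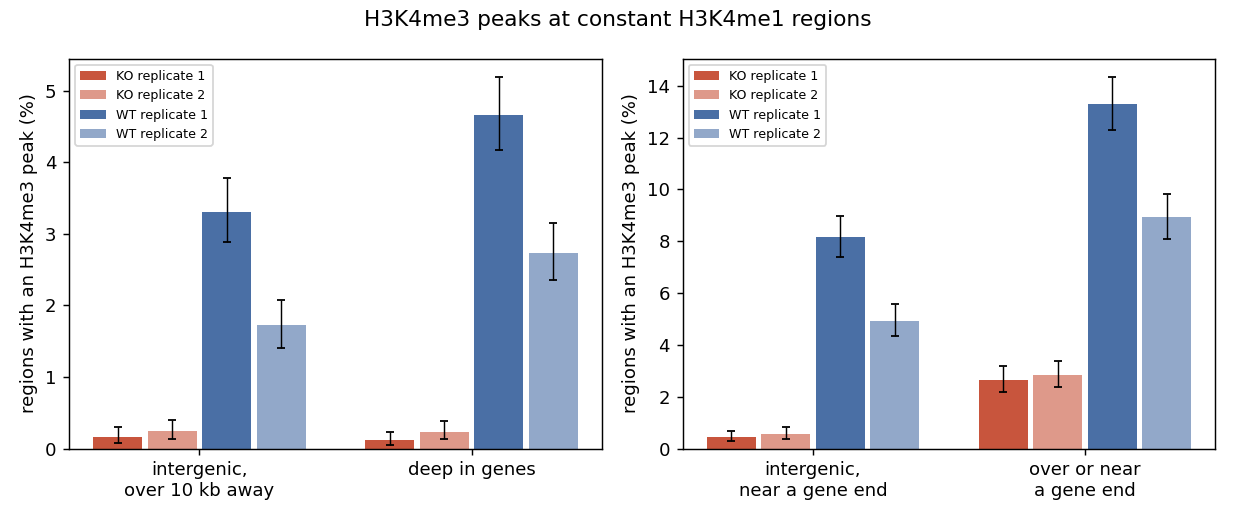
Percentage of constant H3K4me1 regions with an H3K4me3 peak in each library, with exact binomial 95% intervals, for intergenic regions over 10 kb from gene ends and regions deep in genes (left) and for regions near or over gene ends (right, on another scale). The intergenic regions have 0.161% and 0.241% in KO and 3.31% and 1.72% in WT.

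Regions deep inside genes had the same pattern, with H3K4me3 peaks in 0.119% and 0.239% in KO and 4.66% and 2.73% in WT. Constant intergenic regions minus these gave 0.041 and 0.002 percentage points in the KO libraries and -1.35 and -1.01 in the WT libraries, a mean of -0.579 (exact two-sided sign-flip permutation p = 0.5 over 4 libraries). Against all other constant regions the mean difference was -2.42 percentage points and below 0 in all 4 libraries (exact permutation p = 0.13, the smallest possible). Of the 231 intergenic regions with an H3K4me3 peak in any library, 122 had it only in WT replicate 1, 67 in both WT libraries and no KO library, and 8 in all 4. The share with any H3K4me3 peak followed the H3K4me1 rank: 90 of the 1245 regions in the top quintile had one, and 25 of the 1245 in the lowest quintile. The trend came from WT, with 6.18% and 3.53% in the top quintile and 1.69% and 1.12% in the lowest. KO had 0.321% and 0.402% in the top and 0.241% and 0.402% in the lowest. Top-quintile regions were also longer (median 1478 bp, against 1025 bp in the lowest), and the effect of length was not tested. Regions with an H3K4me3 peak lay a median of 69.0 kb from a protein-coding gene, those without 107 kb. Of the 137 regions that rose in H3K4me1, 7 (5.11%) had an H3K4me3 peak in some library, 4 of them among the 6 regions with peaks for all 3 antibodies, and of the 61 that fell, 0 had one (a count of 0 that allows a share of up to 4.92%). Over all 6222 regions 231 (3.71%) had one.

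The 2 regions with H3K4me3 in all 4 libraries and no MLL4 peak, chosen after their values were seen, had low H3K4me1. The region at chr18:5989393-5990472, 34.0 kb from Arhgap12, had H3K4me1 pileups of 15 and 14 in KO and 17 and 21 in WT. The region at chr8:83875702-83877074, 23.0 kb from the adhesion receptor gene Adgrl1, had 16 and 16 in KO and 14 and 12 in WT. Neither passed the H3K4me1 test (adjusted p = 0.562 and 0.355 by limma). The second was also the region nearest to the distance limit, 10002 bp from a gene end.

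MLL4 peaks were found in 6 of the 6222 regions, and each of the 4 MLL4 lists had a peak in the same 6. The count was thus the same in KO and WT (6 and 6 in KO, 6 and 6 in WT, exact permutation p = 1). These are the 6 regions that had peaks with every antibody. The count therefore cannot tell MLL4 from signal that any antibody gives, and it says nothing about MLL4 in KO against WT. The other constant regions held 4 with MLL4 peaks. At chr14:19416915-19417349 the MLL4 pileup was 144 and 103 in KO and 206 and 236 in WT. At chr2:98666322-98667304 it was 138 and 107 in KO and 159 and 159 in WT. At chr9:3020221-3020549 it was 75 and 67 in KO and 110 and 109 in WT, and at chr9:3000366-3001508 it was 70 and 73 in KO and 108 and 122 in WT. These 4 regions gave peaks with every antibody, so their pileups need not measure MLL4 or H3K4me1 itself. At them KO was below WT with the MLL4 antibody, and the H3K4me1 pileups of KO were above those of WT. Both directions held per 1000000 fragments: at chr14:19416915-19417349 MLL4 had 25.1 and 23.2 in KO and 36.6 and 40.4 in WT, and H3K4me1 had 9.98 and 10.5 in KO and 6.98 and 7.24 in WT. At the low region chr14:7524134-7524603 the MLL4 pileup was 31 and 27 in KO and 43 and 41 in WT. At the other low region, chr3:120717092-120717627, it was 19 and 17 in KO and 37 and 31 in WT. For H3K4me3, the pileup per 1000000 fragments was 20.8 and 20.5 in KO and 16.3 and 22.3 in WT at chr14:19416915-19417349, with overlap, and 20.3 and 20.4 in KO and 10.8 and 13.1 in WT at chr2:98666322-98667304, with KO above. With lists of 40 to 69 peaks, the other 6216 regions had no MLL4 peak at this depth, which does not show that MLL4 was absent there.

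At the distance limit of the rule, the 5 regions just inside lay 10002 to 10019 bp from a gene end and had relative levels between those of chr8:83875702-83877074 (described above) and chr13:90559178-90560899, by Atp6ap1l, with 25 and 33 in KO and 39 and 30 in WT. The 5 just outside lay 9980 to 9992 bp from one. They include chr2:27848397-27849108, by Col5a1, with 33 and 29 in KO and 37 and 25 in WT.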

How the data were processed

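The 12 libraries were profiled by Cut & Run, and 1 peak list per library was deposited. Per the submitters' processing notes, reads were handled on mm10 and the software named was HOMER 4.10, SAMtools 1.5, Bowtie2, MACS2, bedtools and deepTools. Per the file headers, the authors ran MACS2 2.1.0.20150731 on every library separately, in paired-end mode, with no control, at a q threshold of 0.01 and with 10000 bp as local background. The command also set an extension size of 147, while the headers give fragment sizes of 224 to 249 bp. Deposited values of a peak are the pileup signal at its summit (a number of fragments that no depth factor was applied to), the −log10 of p and of q, and the fold ratio to local background. All are the authors' own. Deeper libraries let weaker sites pass the same q threshold, and a site without a peak may still carry the mark.

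Genotype and replicate came from sample titles. Regions were merged and classed in Python 3.11.15 (numpy 2.4.6, pandas 2.3.3, scipy 1.17.1) with RefSeq GRCm38.p6 gene spans (38953 genes, 16952 of them protein-coding, on the 15 autosomes). Log2 relative pileups of 2 KO and 2 WT libraries were compared with limma 3.58.1 in R 4.3.3, without a replicate block; Benjamini-Hochberg adjustment was over all constant regions. Single values were compared by exact permutation over libraries. The labels' replicate numbers did not pair the libraries: deviations of same-numbered KO and WT libraries had r = -0.01 over the 6222 regions. Intervals and the limit that a count of 0 allows (3 counts) cover counting error only.

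Members and gene lists were chosen with earlier results of these data known. Regions named are the 10 highest, the 10 highest without MLL4 or H3K4me3 peaks, the 5 farthest from genes, the 5 largest clusters, the 10 smallest p in each direction, and the highest beside up to 5 genes of 4 lists. Alternatives covered peak threshold, list length, overlap, gene distance, scaling, value per region, filter, block, chromosomes and each library left out. Members' own sequence was not analysed here beyond the promoter windows.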

Additional observations from a re-analysis of the deposited data

How the results depend on the processing

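The 6222 regions numbered 3541 with peaks of −log10 q of at least 5 only and 2798 when each library's peaks had to cover 50% of a region; the other limits on distance, list length and libraries gave 4338 to 9070. Regions higher in KO by limma (137) numbered 89 with the library median over all peaks, 49 at −log10 q of at least 5, 26 among constant regions above the median level, 26 at an adjusted p of 0.01, 6 to 32 with 1 library left out (the lone library of its genotype is then assumed to vary like the other genotype), and 0 under quantile normalization, the sum of pileups and the percentile. Regions lower in KO (61) numbered 16, 22 and 5 at that q limit, above the median level and at adjusted p 0.01, 28 with each chromosome centred on its median, 0 to 7 with 1 library left out and 0 under the same 3 scalings and values. The cause was not tested. The limma fit with the replicate block gave 172 higher and 83 lower, the 198 called among them; the numbers did not pair the libraries. Fitting all autosomes and X gave 123 and 78, and a variance trend with level gave 145 and 71. The 20 regions named by smallest p had no change of sign under any setting that gave them a value. The difference in covered length was 3.0 bp without KO replicate 2, and -70.0 to 3.0 bp over the 4 libraries left out. The H3K4me3 difference was 0 percentage points at equal list length, -0.595 at −log10 q of at least 10, and -3.11 to -1.52 with 1 library left out. Clusters of 3 or more numbered 444 with gaps of 25 kb. The share of mesenchymal factors with a region within 200 kb was 68.6%. A median pileup of about 21 fragments limits what 2 libraries a group can show. The windows planned for the regions' own sequence were not run, since no genome was at hand. The fits without MLL4 regions, with the trend, with chromosome centring, and the limits of −log10 q of 3 and adjusted p of 0.01 were chosen after seeing the data.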
